A study of Mus musculus with 6 samples.

Results

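The proteasome genes of splenic CD4+ T cells were described across 6 RNA-seq libraries, as the protein-coding genes whose symbols start with Psma, Psmb, Psmc, Psmd, Psme, Psmf or Psmg. The rule, which uses names and no measured value, found 50 genes among 54532 in the deposited table. Of these, 48 passed the filter on low counts, as did 16075 genes in all. Of the libraries, 3 came from C57BL/6 mice of genotype Ogtfl/wt CD4-Cre, called Ogt-KD, and 3 from C57BL/6 control mice labelled wild type. All mice had EAE (experimental autoimmune encephalomyelitis), in which an immune attack on myelin is induced, and were sampled in its acute phase. CD4-Cre deletes floxed DNA in cells of the T lineage, including those that become CD8+ T cells, and the label gives Ogt-KD mice 1 floxed and 1 wild-type allele. No Cre is named for the wild-type mice, so an effect of the Cre and an effect of the floxed allele cannot be told apart. Ogt encodes the enzyme that attaches O-linked N-acetylglucosamine (O-GlcNAc) to nuclear and cytoplasmic proteins.

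The proteasome is a barrel of stacked alpha and beta rings that cuts ubiquitin-tagged proteins inside its chamber. A cap made of a ring of ATPases, the base, and a lid that removes ubiquitin unfolds the tagged protein and feeds it into the barrel. In lymphocytes, and in other cells under interferon gamma, the beta subunits encoded by Psmb8, Psmb9 and Psmb10 take the places of those encoded by Psmb5, Psmb6 and Psmb7, giving the immunoproteasome, which yields peptides suited to MHC class I. The cap ATPase encoded by Psmc1 is known from mammalian cells to carry O-GlcNAc, which lowers the activity of the cap.

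Promoter windows of 4 members are printed because the results set an inducible and a constitutive catalytic gene, and the activator gene Psme1, side by side. Each holds 250 bases before and 50 bases after a transcript start from RefSeq on GRCm38.p6, read 5′ to 3′ on the gene's strand. Capitals mark a motif match. The windows are Psmb8 at chr17:34197945-34198244 on the + strand, Psmb9 at chr17:34187281-34187580 on the - strand, Psme1 at chr14:55578244-55578543 on the + strand, and Psmb5 at chr14:54617946-54618245 on the - strand.
Psmb8: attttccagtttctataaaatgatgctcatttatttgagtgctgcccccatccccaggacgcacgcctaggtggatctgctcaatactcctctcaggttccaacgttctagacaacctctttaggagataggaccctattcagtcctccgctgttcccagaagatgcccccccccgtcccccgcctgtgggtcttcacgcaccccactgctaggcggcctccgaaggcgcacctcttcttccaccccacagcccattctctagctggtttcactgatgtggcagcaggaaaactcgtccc
Psmb9: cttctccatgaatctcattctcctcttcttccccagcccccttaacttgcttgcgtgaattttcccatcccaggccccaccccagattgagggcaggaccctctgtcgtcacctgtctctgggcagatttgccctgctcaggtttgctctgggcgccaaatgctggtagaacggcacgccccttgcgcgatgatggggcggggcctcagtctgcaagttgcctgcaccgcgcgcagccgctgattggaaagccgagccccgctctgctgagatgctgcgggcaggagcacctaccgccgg
Psme1: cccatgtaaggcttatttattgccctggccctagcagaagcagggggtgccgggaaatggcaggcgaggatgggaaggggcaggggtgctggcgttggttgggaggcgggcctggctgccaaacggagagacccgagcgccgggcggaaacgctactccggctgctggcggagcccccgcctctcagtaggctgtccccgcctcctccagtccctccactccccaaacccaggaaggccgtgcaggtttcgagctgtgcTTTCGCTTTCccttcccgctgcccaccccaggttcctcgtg
Psmb5: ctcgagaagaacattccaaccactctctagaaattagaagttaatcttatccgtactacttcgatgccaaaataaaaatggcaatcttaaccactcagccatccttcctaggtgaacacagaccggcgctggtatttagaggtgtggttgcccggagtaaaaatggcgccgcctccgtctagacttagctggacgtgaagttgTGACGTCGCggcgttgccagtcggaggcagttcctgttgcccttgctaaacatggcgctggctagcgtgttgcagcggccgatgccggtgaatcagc
The Psme1 window holds the motif bound by interferon regulatory factors, searched as GAAA, any 2 bases and GAAA again, on the opposite strand and so printed as TTTCGCTTTC. The Psmb5 window holds TGACNNNGC, the antioxidant response element. The Psmb8 and Psmb9 windows hold neither motif, and that of Psmb9 shares 275 bases with the window of the divergent neighbour Tap1, a peptide transporter gene. The Psmb8, Psmb9 and Psme1 windows lie within the deposited gene spans, so bases upstream of those spans were not searched for these genes. Both strands were searched in 45 windows of the 42 members that RefSeq matched, and in all 32851 windows. The interferon regulatory factor motif lay in 5 member windows (11.1%) against 3.44% of all windows, namely those of Psmb3, Psmd4, Psmd9, Psme1 and Psmg4. TGACNNNGC lay in 6 (13.3%) against 12.4%. Matches are letters only and were not tested as binding sites.

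No proteasome gene passed the test between Ogt-KD and wild-type control libraries. The edgeR quasi-likelihood test called 0 of 48 members at an adjusted p of 0.05, against 0.00622% of all 16075 genes, and the smallest member adjusted p was 0.733. At an unadjusted p of 0.05 it also called 0 members, against 7.52% of all genes. DESeq2 also called 0 of 48, against 0.681% of all genes, limma-voom called 0 of 48, against 0.00622% of all genes, and the authors' deposited table gave 0 of 50, against 0.417% of all genes. Log2 fold changes, Ogt-KD over control throughout, lay above 0 for 27 members and below 0 for 21, where 49% of all genes lay above 0. Their median was 0.01, beside -0.0048 over all genes tested, and they ran from -0.23 (Psmg4) to 0.21 (Psmb9). The 95% interval lay within 0.5 of 0 for 36 members and within 1 of 0 for all 48 tested. The interval bound farthest from 0 was 0.652, for Psma4.

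**Figure D1:**
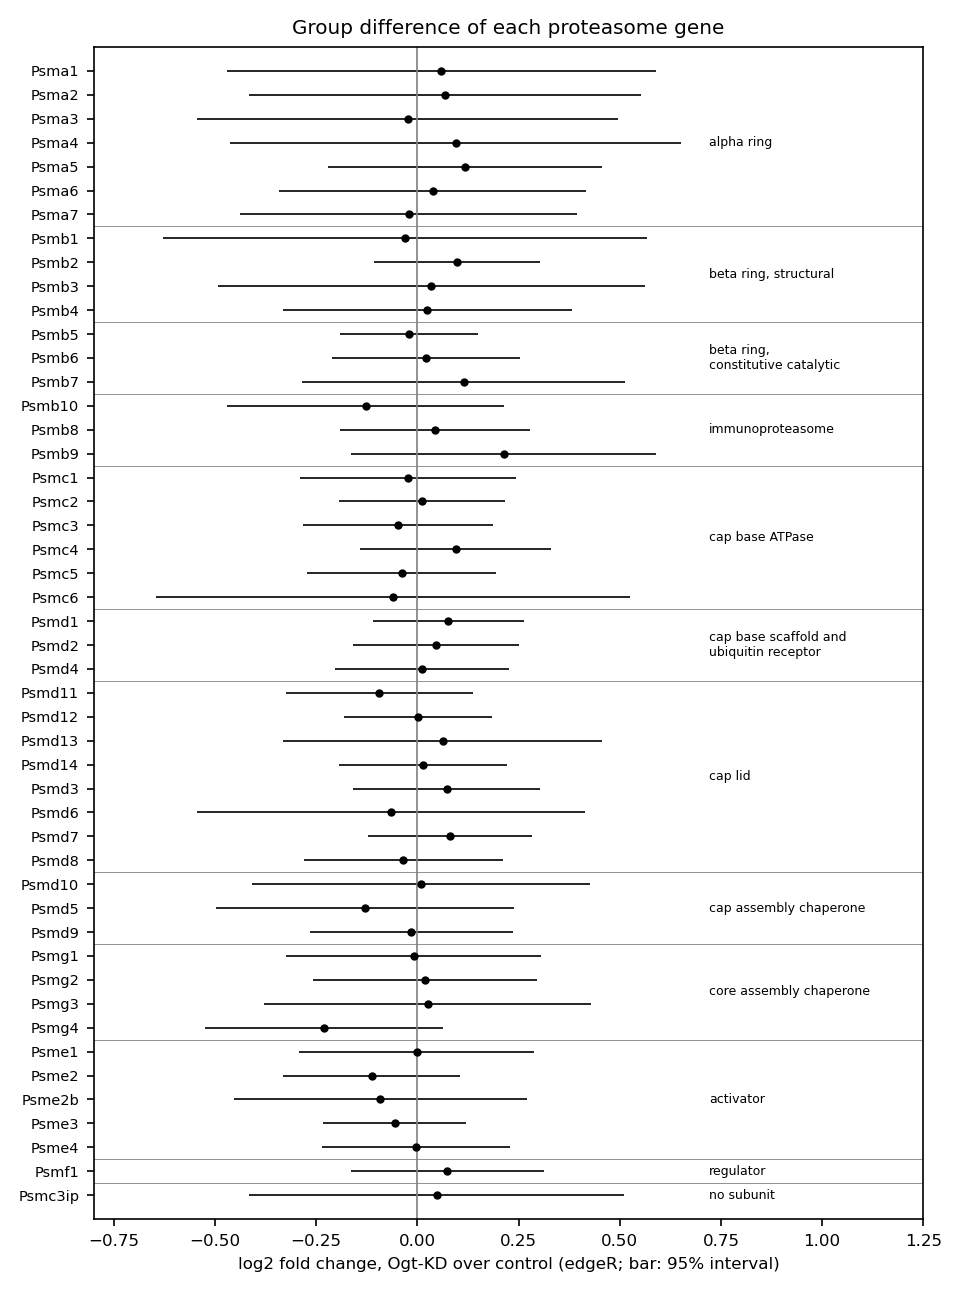
Log2 fold change of each of the 48 tested genes, Ogt-KD over control, grouped by role. Points are edgeR estimates and bars 95% intervals (n = 3 each), and the estimates run from -0.23 for Psmg4 to 0.21 for Psmb9.

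Total counts were 19563894, 18969803 and 25683453 in Ogt-KD replicates 1 to 3, and 22768353, 24917282 and 18127031 in controls. Members took 0.483% to 0.534% of the counts of a library, and single tested members had from 104 to 9889 counts. Ogt itself stood at 661.9, 598.8 and 458.6 CPM (the count scaled to library size with TMM factors) in libraries labelled Ogt-KD, against 599.2, 627.9 and 562.4 CPM in control (log2 fold change -0.06, SE 0.15, edgeR adjusted p = 0.981). The Ogt-KD label is therefore not borne out by the gene's RNA level. Exons that a deletion leaves in place are counted too, so this level does not check the deletion. Ogt lies on chromosome X, and which of its alleles each cell used was not measured. On the main axis of variation (48.7% of the variance), Ogt-KD replicate 3 and control replicate 3 stood together at -33.5 and -33.48, and the other libraries lay between -6.42 and 36.07. The summed CPM of 7 CD4+ T cell markers was 3619, 3364 and 3280 in Ogt-KD, against 3864, 3559 and 3470 in control, with 3 fold changes above 0 and 4 below. For 9 dendritic cell markers the sum was 1263, 1764 and 647.4 in Ogt-KD, against 765.4, 774.0 and 375.6 in control, with all 9 fold changes above 0. Most of it was Cd74 and H2-Ab1, named here after their values were seen. Cd74 had 692.7, 948.4 and 369.9 CPM in Ogt-KD, against 444.6, 450.2 and 236 CPM in control. H2-Ab1 had 430.1, 614.9 and 211.1 CPM in Ogt-KD, against 253.6, 245.5 and 111.2 CPM in control. The dendritic sum is therefore mainly the level of these genes. Taken gene by gene, the 9 log2 fold changes had a median of 1.12 (0.16 to 1.43), and 0 passed the edgeR test. For 7 macrophage markers the sum was 545.3, 642.6 and 2959 in Ogt-KD, against 1321, 1392 and 3312 in control, with 0 above 0. For 6 erythroid markers it was 40.12, 55.46 and 200 in Ogt-KD, against 35.17, 15.91 and 47.99 in control, with 6 above 0. B cell markers summed to 84.86 to 112.5 in Ogt-KD and 69.51 to 100.7 in control, neutrophil markers to 99.54 to 236.2 and 84.13 to 181.4, plasma cell markers to 175.2 to 305.8 and 131.2 to 322.8, and CD8 T and NK cell markers to 21.21 to 25.82 and 21.1 to 23.67. All 6 B cell and all 6 neutrophil fold changes lay above 0, as did 2 of 4 for plasma cells and 2 of 3 tested for CD8 T and NK cells. No listed marker that the table holds was at 0 in every library. In bulk libraries fewer cells of a type and less RNA per cell cannot be told apart.

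Immunoproteasome transcripts were abundant and close in level between the groups. Psmb8 (chr17:34197721-34201454 on GRCm38, + strand), which encodes the inducible chymotrypsin-like subunit, had 389.8, 430.3 and 379.7 CPM in Ogt-KD, against 401.9, 398.3 and 363.9 CPM in control. The groups overlapped, with means of 399.9 ± 26.78 and 388.0 ± 20.96 CPM (SD, n = 3 each). The log2 fold change, 0.04, had a 95% interval from -0.19 to 0.28 (edgeR SE 0.10 and adjusted p = 0.979). Psmb9 (chr17:34181988-34187764, - strand), the inducible caspase-like position, had 278.4, 326.1 and 218.0 CPM in Ogt-KD, against 251.6, 248.0 and 210.1 CPM in control. Replicates 1 and 2 of Ogt-KD lay above all controls and replicate 3 lay among them. The means were 274.2 ± 54.19 and 236.6 ± 22.99 CPM, and the log2 fold change of 0.21, the highest of any member, had an interval from -0.16 to 0.59 (SE 0.16, edgeR adjusted p = 0.859). It was 0.07 without Ogt-KD replicate 2, 0.35 without Ogt-KD replicate 3 and 0.11 without control replicate 3. Psmb10 (chr8:105935735-105938444, - strand), the inducible trypsin-like subunit, had 144.4, 179.9 and 126.6 CPM in Ogt-KD, against 171.8, 174.0 and 146.6 CPM in control. Its groups overlapped too (log2 fold change -0.13, SE 0.15, edgeR adjusted p = 0.941). Each of the 3 was highest in Ogt-KD replicate 2, and within each group each was lowest in replicate 3. All 3 genes overlap a gene on the other strand, Psmb8 Gm20496, Psmb9 Tap1 and Psmb10 Gm16156, and without a stated strand setting reads of the overlaps cannot be told apart.

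Of the constitutive partners, Psmb5 varied least between libraries. Psmb5 (chr14:54614119-54618022, - strand), the constitutive chymotrypsin-like subunit, had 67.21, 64.69 and 65.73 CPM in Ogt-KD, against 67.59, 66.25 and 66.69 CPM in control. Its standard error was the smallest of any member, and the log2 fold change, -0.02, had a 95% interval from -0.19 to 0.15 (edgeR SE 0.07 and adjusted p = 0.983). Psmb6, the constitutive caspase-like subunit, had 87.68, 86.84 and 96.90 CPM in Ogt-KD, against 91.16, 80.10 and 96.21 CPM in control (log2 fold change 0.02, edgeR adjusted p = 0.987). Psmb7, the constitutive trypsin-like subunit, had 53.64, 54.95 and 78.08 CPM in Ogt-KD, against 60.10, 49.86 and 62.69 CPM in control (log2 fold change 0.11, edgeR adjusted p = 0.962). Its highest library was Ogt-KD replicate 3, and the groups of all 3 genes overlapped.

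The balance of each pair was taken as the inducible gene's share of the summed FPKM, the fragment count scaled to gene length and library size, over both genes. Psmb8 made up 65.6%, 68.6% and 65.5% of its pair in Ogt-KD, against 66.1%, 66.4% and 64.2% in control. Psmb9 made up 61.9%, 65.8% and 53.5% in Ogt-KD, against 58.5%, 61.3% and 52.8% in control. Psmb10 made up 84.4%, 86.8% and 76.5% in Ogt-KD, against 85.2%, 87.5% and 82.4% in control. The inducible gene was the larger in every pair and library. Mean differences, Ogt-KD minus control, were 0.987, 2.85 and -2.48 percentage points, each less than the larger of the SDs within its groups. They depended on single libraries. Without Ogt-KD replicate 3 they were 1.53, 6.32 and 0.567 points for the Psmb8, Psmb9 and Psmb10 pairs, so that of Psmb10 turned in sign. Without Ogt-KD replicate 2 they were -0.0167, 0.167 and -4.58 points. Leaving out 1 control library gave 0.317 to 1.42, 0.5 to 4.75 and -3.78 to -1.23 points. The shares depend on the gene length used. With the length of a single transcript in place of the deposited length, the mean shares were 77.0% and 76.2% for Psmb8, 63.7% and 61.0% for Psmb9, and 67.9% and 71.5% for Psmb10, in Ogt-KD and control.

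**Figure D2:**
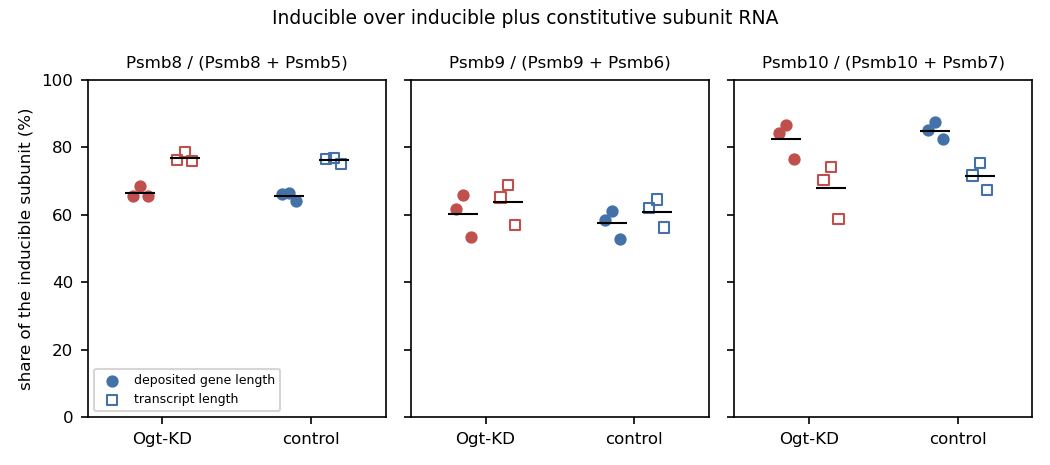
Percent share of the inducible gene in each pair of catalytic beta subunits, per library, for the deposited gene length and a transcript length. Points are libraries and lines group means, and the inducible gene exceeds 50% throughout, with Ogt-KD and control points overlapping in each pair.

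Alpha ring transcripts spread more between libraries of a group than between groups. Psma1 to Psma7 encode the outer rings that gate the barrel, and 5 had a fold change above 0 and 2 below, with a median of 0.06 on the log2 scale. Psma5 had 61.67, 67.63 and 87.95 CPM in Ogt-KD, against 66.59, 61.90 and 71.99 CPM in control (log2 fold change 0.12, SE 0.14, edgeR adjusted p = 0.951). Psma4 had 97.23, 100.1 and 167.9 CPM in Ogt-KD, against 122.7, 92.31 and 127.4 CPM in control (log2 fold change 0.09, SE 0.24, edgeR adjusted p = 0.9797). In both, Ogt-KD replicate 3 was the highest library, as it was for all 7 tested alpha ring genes. The median of the 7 was -0.21 without that library and -0.05 without control replicate 2, so its sign depends on the libraries used.

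The structural beta subunits, which have no active site, included genes of both behaviours. Psmb2 had 66.13, 74.27 and 63.62 CPM in Ogt-KD, against 63.39, 64.07 and 63.14 CPM in control, with controls within 1 CPM of each other (log2 fold change 0.10, SE 0.09, edgeR adjusted p = 0.907). Psmb4 had 135.0, 145.2 and 195.8 CPM in Ogt-KD, against 162.5, 142.7 and 163.1 CPM in control (log2 fold change 0.02, edgeR adjusted p = 0.992). Psmb1 and Psmb3 were also highest in Ogt-KD replicate 3, at 238.2 and 197.2 CPM. Psmb1 had the largest standard error of any member (log2 fold change -0.03, SE 0.25). Summed over alpha, structural and constitutive catalytic genes, the core stood at 1377, 1419 and 2040 CPM in Ogt-KD, against 1670, 1346 and 1714 CPM in control. The inducible trio summed to 812.6, 936.3 and 724.2 CPM in Ogt-KD, against 825.3, 820.2 and 720.6 CPM in control.

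The ATPases that unfold substrates had 2 fold changes above and 4 below 0. Psmc4 had 78.57, 92.92 and 75.65 CPM in Ogt-KD, against 76.18, 80.22 and 74.97 CPM in control (log2 fold change 0.09, SE 0.10, edgeR adjusted p = 0.936). Psmc3 had 110.0, 124.9 and 136.8 CPM in Ogt-KD, against 128.5, 124.1 and 131.6 CPM in control (log2 fold change -0.05, edgeR adjusted p = 0.977). Groups overlapped in both. Psmc1, named here for its O-GlcNAc modification, had 115.2, 112.7 and 135.1 CPM in Ogt-KD, against 114.0, 117.4 and 137.5 CPM in control (log2 fold change -0.02, 95% interval -0.29 to 0.24, edgeR adjusted p = 0.988). RNA level does not measure that modification. Psmc6 ranged most widely of the ATPases, with 63.58, 67.37 and 112.2 CPM in Ogt-KD, against 97.64, 65.97 and 90.35 CPM in control.

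The base scaffold and ubiquitin receptor genes, Psmd1, Psmd2 and Psmd4, all lay slightly above 0. Psmd1, a large scaffold subunit, had 65.10, 72.70 and 67.37 CPM in Ogt-KD, against 64.30, 65.64 and 64.66 CPM in control (log2 fold change 0.08, edgeR adjusted p = 0.935). Psmd2, the other scaffold, had 191.4, 196.6 and 174.2 CPM in Ogt-KD, against 177.1, 190.3 and 177.3 CPM in control (log2 fold change 0.05, edgeR adjusted p = 0.973). Of 8 lid genes, 5 lay above and 3 below 0, with a median of 0.01. Psmd11, a lid scaffold subunit, had 69.41, 66.0 and 59.9 CPM in Ogt-KD, against 72.34, 72.97 and 63.14 CPM in control (log2 fold change -0.09, edgeR adjusted p = 0.935). Psmd7, which pairs with the deubiquitinase subunit, had 72.99, 78.12 and 67.29 CPM in Ogt-KD, against 68.0, 70.88 and 67.65 CPM in control (log2 fold change 0.08, edgeR adjusted p = 0.939). Psmd14, that deubiquitinase, had a log2 fold change of 0.01 (95% interval -0.19 to 0.22). Cap genes summed to 1535, 1608 and 1679 CPM in Ogt-KD and 1610, 1569 and 1621 CPM in control.

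The 5 activator genes had fold changes below 0 with all libraries, with a median of -0.06, and none passed the test. Without Ogt-KD replicate 3, Psme1 and Psme2b stood above 0, at 0.08 and 0.01 on the log2 scale, and Psme1 was also above 0 without Ogt-KD replicate 1, control replicate 1 or control replicate 2. Psme1 (chr14:55578123-55581529, + strand) and Psme2 (chr14:55587441-55591113, - strand) encode the interferon-inducible ring that opens the barrel without ATP. Psme1 had 279.3, 321.8 and 249.2 CPM in Ogt-KD, against 293.2, 300.2 and 257.6 CPM in control (log2 fold change -0.0015, 95% interval -0.29 to 0.29, edgeR adjusted p = 0.9996). Psme2 had 198.9, 224.1 and 211.7 CPM in Ogt-KD, against 243.5, 229.2 and 213.9 CPM in control (log2 fold change -0.11, SE 0.09, edgeR adjusted p = 0.882). Psme2b had 125.8, 167.4 and 115.0 CPM in Ogt-KD, against 154.6, 150.3 and 130.3 CPM in control. Groups overlapped in all 3. Psme2 and Psme2b transcripts were identical at 789 of 794 aligned bases (99.4%), so reads can be split between them and both levels are uncertain. Psme2b also shares all its 837 bases with Gm12185 and 41 bases with 9930111J21Rik1, both on its own strand, so reads there may be shared too. Psme3, the nuclear activator, and Psme4, a large single-chain activator, had log2 fold changes of -0.06 and -0.0042. Psme4 had 74.02, 76.6 and 90.59 CPM in Ogt-KD, against 81.66, 82.04 and 78.24 CPM in control, so Ogt-KD libraries lay on both sides of the controls.

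Psmg4 was the member whose groups did not overlap. This gene (chr13:34162964-34178173, + strand) encodes a chaperone that helps assemble the alpha ring. It had 19.69, 22.81 and 25.89 CPM in Ogt-KD, against 27.08, 26.54 and 26.76 CPM in control, or 22.80 ± 3.101 and 26.79 ± 0.2732 CPM (SD, n = 3 each). All Ogt-KD values lay below all control values, replicate 3 by the least, but the fold change did not pass the test. On the log2 scale it was -0.23, with a 95% interval from -0.53 to 0.06 (edgeR SE 0.12 and adjusted p = 0.733). It was -0.13 when Ogt-KD replicate 1 was left out. Such separation was seen in 1 of 48 members, against 13.3% of all genes, made up of 7.43% with Ogt-KD higher and 5.88% with Ogt-KD lower. Without Ogt-KD replicate 3 it was seen in 12 members, against 39.4% of all genes. The other alpha ring assembly genes, Psmg1, Psmg2 and Psmg3, had log2 fold changes of -0.01, 0.02 and 0.02. Psmg2 had 28.41, 24.84 and 27.77 CPM in Ogt-KD, against 27.54, 23.72 and 28.78 CPM in control (edgeR adjusted p = 0.992).

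Chaperones of the cap base likewise overlapped between groups. Psmd5 had 35.37, 37.31 and 46.63 CPM in Ogt-KD, against 46.72, 35.84 and 48.10 CPM in control (log2 fold change -0.13, edgeR adjusted p = 0.946). Psmd9 had 23.61, 24.33 and 27.45 CPM in Ogt-KD, against 26.53, 24.53 and 25.18 CPM in control (log2 fold change -0.02, edgeR adjusted p = 0.992). Psmd10, also called gankyrin, had a log2 fold change of 0.01. Psmf1, a proteasome-binding regulator, had 40.61, 35.64 and 35.96 CPM in Ogt-KD, against 33.25, 37.74 and 35.60 CPM in control (log2 fold change 0.07, edgeR adjusted p = 0.956). Psmc3ip is caught by the name rule but acts in meiotic recombination, and had 6.66, 5.27 and 6.11 CPM in Ogt-KD, against 5.94, 4.91 and 6.65 CPM in control. Psma8, the testis form of an alpha subunit, had 3, 6 and 14 counts in Ogt-KD, against 4, 8 and 9 in control, and was not tested. Psmb11, the catalytic subunit of the thymic cortical epithelium, had 1, 3 and 0 counts in Ogt-KD, against 4, 3 and 2 in control, and was not tested.

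Per length, Psme1, Psmb8, Psme2 and Psmb9 had the highest mean levels of the family, with library values that overlapped between neighbours in that order. As CPM per kilobase of transcript, averaged over all 6 libraries, Psme1 was highest at 255.0, then Psmb8 at 242.0, Psme2 at 228.9, Psmb9 at 188.9 and Psmb3 at 188.3. The role medians were 188.9 for the immunoproteasome, 168.0 for activators, 114.8 for structural beta, 100.1 for alpha, 73.81 for constitutive catalytic, 62.32 for ATPases and 44.72 for lid genes. Assembly genes had lower medians, at 24.6 for the core and 9.732 for the cap. The order depends on the length: by deposited FPKM, whose gene lengths were 1.0 to 4.65 times the transcript length, the highest was Psme2b at 166.9 and then Psmb8 at 143.1.

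**Figure D3:**
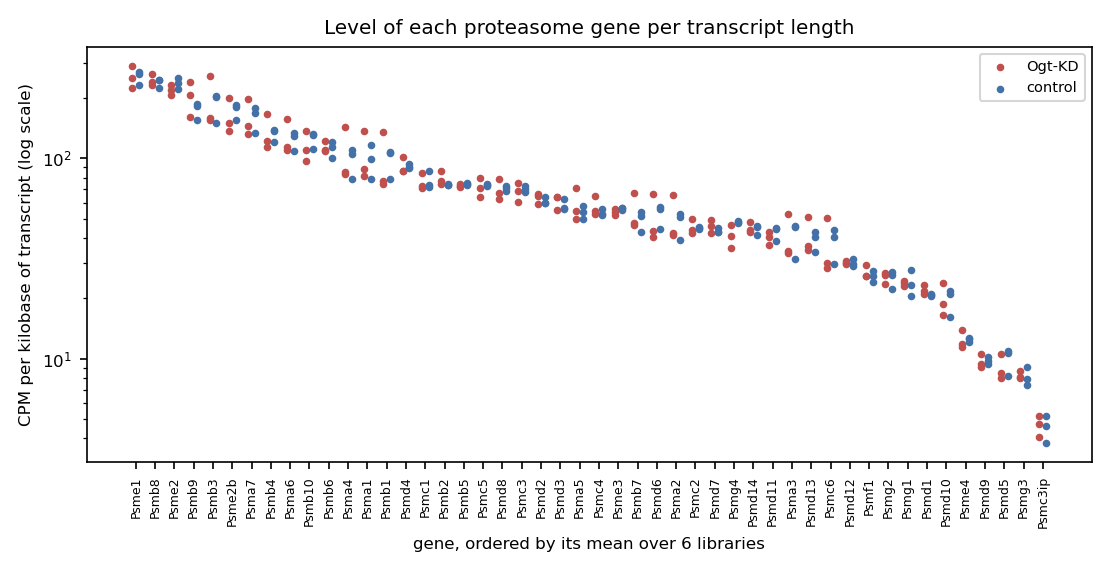
Level of each tested member as CPM per kilobase of transcript, per library, on a log axis, with genes ordered by their mean. Points are libraries, and Psme1 and Psmb8 are the highest with means of 255.0 and 242.0.

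Members differed between libraries within the Ogt-KD group. Ogt-KD replicate 3 was the highest library for 22 of 48 members (45.8%), against 24.4% of all genes, and the lowest for 10 (20.8%), against 25.3%. The first set held the 7 tested alpha genes, Psmb1, Psmb3, Psmb4, Psmb6 and Psmb7, the cap genes Psmc3, Psmc6, Psmd4, Psmd6, Psmd8, Psmd13 and Psmd14, the cap chaperones Psmd9 and Psmd10, and the activator Psme4. The second held Psmb10, the activators Psme1, Psme2b and Psme3, and the cap genes Psmc2, Psmc5, Psmd2, Psmd3, Psmd7 and Psmd11. As the median deviation of log2(CPM + 0.5) from each gene's mean, the alpha ring stood at -0.21, -0.16 and 0.40 in Ogt-KD, against 0.08, -0.29 and 0.14 in control. The immunoproteasome stood at -0.01, 0.20 and -0.21 in Ogt-KD, against 0.03, 0.02 and -0.11 in control. Cap and activator genes thus fell in both sets, while no alpha gene was in the second.

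**Figure D4:**
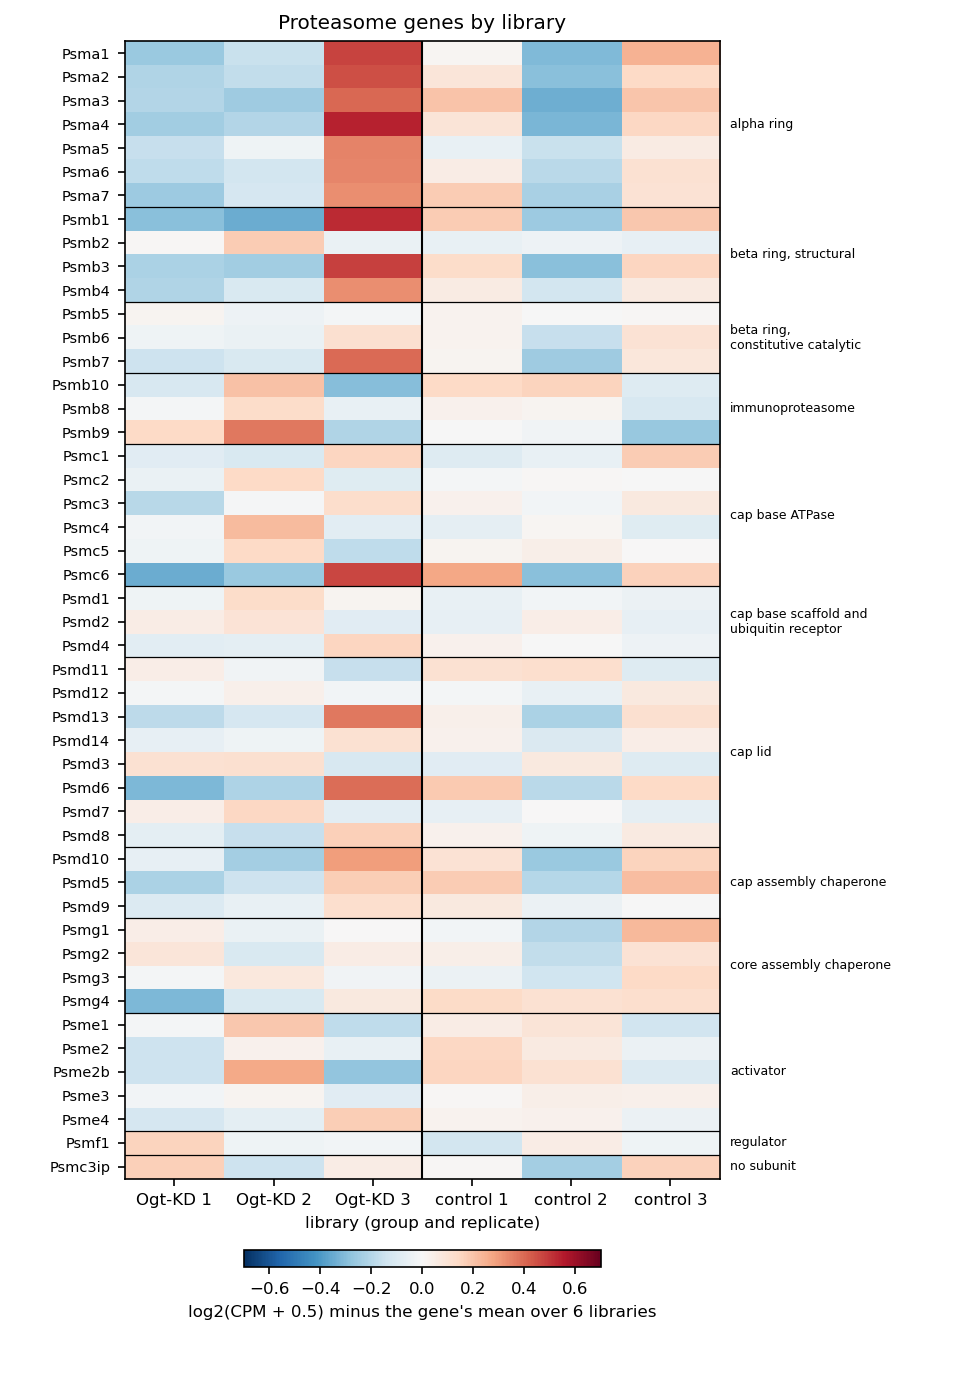
Log2(CPM + 0.5) of the 48 tested genes in each library minus the gene's mean over the 6 libraries, with roles marked at the right. Alpha ring genes are highest in Ogt-KD replicate 3, and the 3 immunoproteasome genes in Ogt-KD replicate 2.

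Other measures were set beside these library values. The 81 tested ribosomal protein genes, a list chosen after values were seen, had median deviations of -0.31, -0.43 and 0.47 in Ogt-KD, against 0.28, -0.26 and 0.24 in control. Of them 62 were highest in Ogt-KD replicate 3 (76.5%). The coding length had a median of 786 bases (615 to 5529) in members highest in that library. It was 1090.5 bases (717 to 2724) in those lowest in it and 802.5 bases (366 to 2859) in the rest. The 7 tested alpha ring genes, all highest in that library, had 702 to 789 bases. Of the other tested members in that range, Psmb1 (720) and Psmb6 (714) were also highest in it. Psme1 (747), Psme2b (717) and Psme3 (762) were lowest in it, and Psme2 (717) was neither. The parts of length and role were not tested. Of the marker sums given above, the macrophage sum was high in replicate 3 of both groups, the erythroid sum was highest in Ogt-KD replicate 3, and the dendritic sum was lowest within each group in replicate 3. The part of these measures in the member values was not tested. Without Ogt-KD replicate 3, 16 members lay above and 32 below 0, and 0 passed. At an unadjusted p of 0.05 that fit took Psmb9 as higher (log2 fold change 0.35, edgeR adjusted p = 0.196) and Psmb1, Psmd6 and Psmg4 as lower, or 4 of 48 members against 18.4% of all genes.

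**Figure D5:**
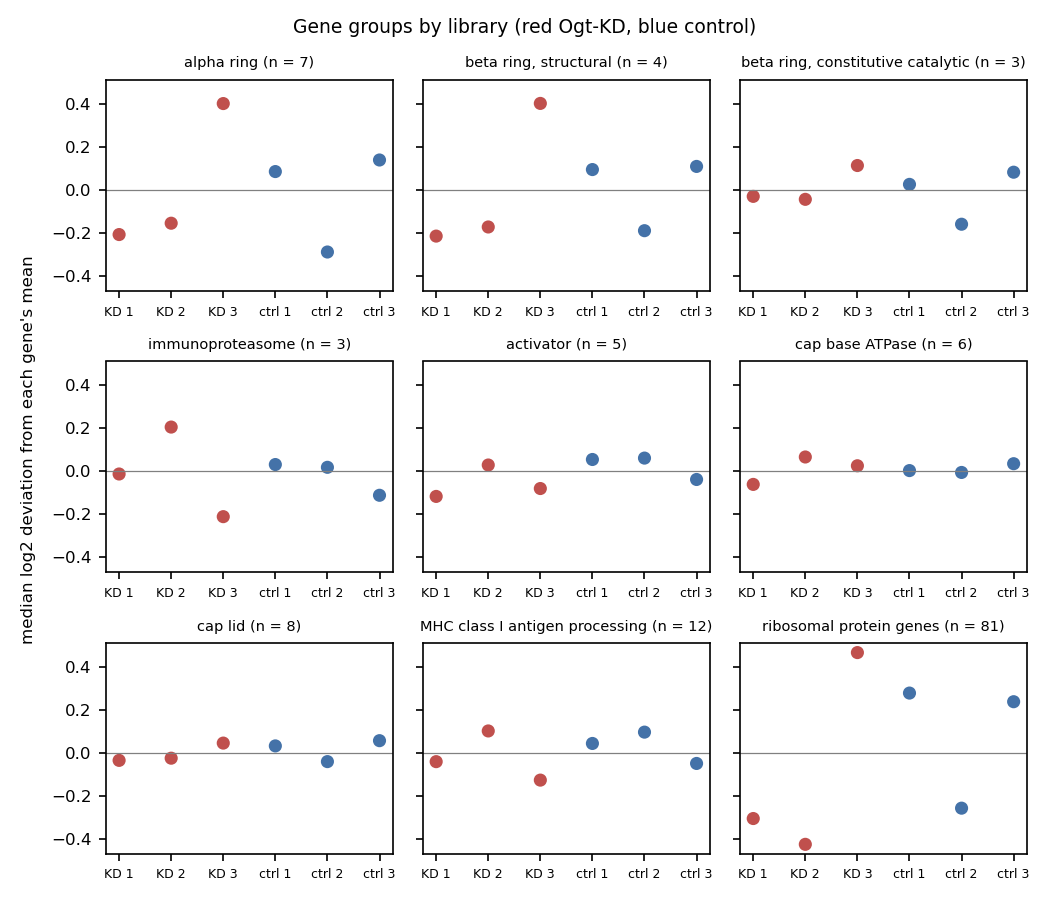
Median deviation of log2(CPM + 0.5) from each gene's mean, by role and library, with ribosomal protein and MHC class I genes beside the proteasome roles. The alpha ring reaches 0.40 and ribosomal protein genes 0.47 in Ogt-KD replicate 3, where the immunoproteasome stands at -0.21.

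Genes that work with the proteasome showed 0 edgeR calls in every list tested. Of 12 MHC class I antigen processing genes, 4 lay above and 8 below 0, with a median of -0.03. Those with the smallest p were the chaperones Canx and Calr, each at -0.21 on the log2 scale, and the peptide-trimming Erap1 at -0.10. Canx stayed between -0.175 and -0.275 on leaving out 1 library, whereas Calr stood at -0.001 without Ogt-KD replicate 3 and at -0.36 when Ogt-KD replicate 2 was left out. Tap1, chosen after its values were seen as the gene that shares the Psmb9 promoter, had 601.3, 699.8 and 455.3 CPM in Ogt-KD, against 514.8, 603.4 and 414.1 CPM in control. Like Psmb9 it was highest in Ogt-KD replicate 2 and lowest in each group in replicate 3, though the gene bodies overlap by 212 bases on opposite strands. Nlrc5, a transactivator of MHC class I genes also chosen after its values were seen, had 642.9, 785.6 and 424.5 CPM in Ogt-KD, against 582.3, 663.3 and 461.9 CPM in control.

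Of 9 genes of interferon signalling to the immunoproteasome, 5 lay above and 4 below 0, with a median of 0.15. Ifngr2, an interferon gamma receptor chain, had 34.29, 39.95 and 37.24 CPM in Ogt-KD, against 48.5, 44.74 and 46.25 CPM in control. Its groups were apart, with a log2 fold change of -0.32 that did not pass (SE 0.09, edgeR adjusted p = 0.556). The transcription factor Irf8 stood at 0.25 (edgeR adjusted p = 0.624) and the kinase Jak1 at -0.23 (edgeR adjusted p = 0.685). Groups were apart for both as well. In this list 1 gene was apart with Ogt-KD higher and 2 with Ogt-KD lower, against 7.43% and 5.88% of all genes.

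Of 10 genes that control proteasome transcription, 3 lay above and 7 below 0. Maff, a small Maf protein, had 14.40, 19.72 and 17.26 CPM in Ogt-KD, against 22.74, 25.25 and 24.56 CPM in control (log2 fold change -0.50, SE 0.14, edgeR adjusted p = 0.542). Nfe2l2, which encodes the factor NRF2 that binds antioxidant response elements, had 48.64, 48.92 and 48.03 CPM in Ogt-KD, against 55.17, 53.12 and 55.09 CPM in control (log2 fold change -0.17, edgeR adjusted p = 0.671). In both, every Ogt-KD library lay below every control library, as in 5.88% of all genes, and neither passed. Mafk stood at -0.14. A link between these RNA levels and the members whose windows hold the antioxidant response element letters, Psmb5 among them, was not tested.

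Of 9 subunits and cofactors under other names, 4 lay above and 5 below 0, and Uchl5, Ube3c and Akirin2 had the smallest p, at -0.16, -0.14 and -0.13. Pomp, the maturation factor of the core, had 103.0, 106.2 and 155.4 CPM in Ogt-KD, against 119.8, 99.35 and 120.3 CPM in control, and Ogt-KD replicate 3 was again the highest. It was chosen after its values were seen. Of 10 ubiquitin genes 5 lay on each side of 0, and Uba6, Ube2k and Ube2d3 stood at 0.14, -0.09 and -0.08. Of 13 shuttle and segregase genes 6 lay above and 7 below 0, and Ubqln1, Ubqln4 and Zfand2a stood at -0.28, -0.21 and -0.27. Of 12 cell division genes all lay above 0, with a median of 0.81 and 0 passing the edgeR test. Kif11, Cenpf and Nusap1 stood at 0.93, 0.88 and 0.79. DESeq2 called them with adjusted p of 0.0102, 0.0259 and 0.0458, where it called 0.681% of all genes. At an unadjusted edgeR p of 0.05, 11 of the 12 were called, against 7.52% of all genes. In these lists groups were apart with Ogt-KD lower for Uchl5, Ubqln1 and Ubqln4, against 5.88% of all genes. They were apart with Ogt-KD higher for Uba6 and 8 cell division genes, against 7.43% of all genes.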

How the data were processed

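Spleen CD4+ T cell RNA was sequenced from mice with EAE, as 3 libraries labelled Ogt-KD and 3 labelled control. The submitters' processing notes name TopHat2 2.0.9, Bowtie2 2.0.6 and mm9, whereas coordinates in the deposited table match GRCm38 (48 of 50 members identical to GENCODE M21). The counter and its strand setting are not stated by any header or label used. The authors deposited raw gene counts and, per the file headers, FPKM, which equal count over total and deposited gene length. The authors' deposited normalised count signal, log2 fold changes and p-values were read only as their own comparison.

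Counts were tested with edgeR 4.0.16 (TMM, filterByExpr, robust quasi-likelihood F test, group only) over all genes with Benjamini-Hochberg adjustment at 0.05, in R 4.3.3. SE is the log2 fold change over the root of F. DESeq2 1.42.0 and limma 3.58.1 (voom), a replicate block, RLE scaling, no filter, and leaving out libraries were alternatives. Scripts were tested on simulated data. Transcripts were aligned with Biopython 1.88. The 6 libraries were distinct. Their titles number the replicates and do not say whether each is a single mouse or a pool.

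Genes named with values were the catalytic subunits, Psme1, Psme2, the 2 members of each other role and up to 3 genes of each pathway list with the smallest p. Psmc1 was added for its background, and Psmb1, Psmb3, Psmc6, Psmd10, Psmd14, Psme2b, Psme3, Psme4, Psmg1, Psmg3 and the genes marked in the text were added after their values were seen. Members and lists were chosen with earlier results of these data known. Of the members, 24 overlap another gene, 19 of them one on the other strand, including Psmb8, Psmb9, Psmb10 and Psmc3, and without a stated strand setting reads there may be shared. The 4 named pseudogenes held at most 1 count. Results for 1 item are not reported here.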

Additional observations from a re-analysis of the deposited data

How the results depend on the processing

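No member passed the adjusted threshold under any alternative run. Over all genes, 1 was called by edgeR, against 111 by DESeq2, 4 without the filter, 35 without replicate 3 of both groups, and 1 to 2 on leaving out 1 library. Member groups were apart for 1 gene, against 13.3% of all genes. They were apart for 2 on the genes and scaling of the DESeq2 Wald test, 1 on DESeq2 size factors in edgeR and 3 without the filter. Without replicate 3 of both groups they were apart for 16, against 49.5% of all genes. Leaving out 1 library gave 2 to 12, the 12 being without Ogt-KD replicate 3, against 39.4% of all genes. For the other settings the share over all genes is not given, so their counts are no result about the members. The member median log2 fold change was 0.0104, and -0.0451 to 0.0478 on leaving out 1 library. Same-numbered libraries deviated together with r of 0.0937, 0.404 and 0.583 across genes, and Ogt-KD replicate 1 correlated best with control replicate 2, so the numbers were not taken to pair mice; with the replicate block 47 genes and 0 members were called (smallest member adjusted p 0.429). With 3 libraries per group, member SEs ran from 0.0719 to 0.253, which limits the smallest fold change that could be called.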
